A study of Drosophila melanogaster with 4 samples.

Results

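Acetylcholine is the main fast excitatory transmitter of the insect brain. It is made by choline acetyltransferase, loaded into synaptic vesicles, released onto nicotinic receptors, which are ligand-gated cation channels built from alpha and often beta subunits, and cleared by acetylcholinesterase, after which a transporter returns the choline to the nerve terminal. Transcripts of this cycle were followed in RNA that precipitated with LARK, a Drosophila RNA-binding protein. The genes were chosen by name, with earlier results of these data known. They were ChAT (CG12345) for synthesis, ChT (CG7708) for choline uptake, VAChT (CG32848) for vesicular loading and Ace (CG17907) for breakdown. For reception, nAChRalpha1 (CG5610), nAChRalpha2 (CG6844) and nAChRbeta1 (CG11348) were added. Of these 7 genes, 6 were among the 10844 genes that the array's annotation names by a single symbol. They were represented by 7 probe sets of 13966, a probe set being a group of short probes that report on the same transcript. ChAT had 2 probe sets. No probe set was named for VAChT, which has no value here.

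The samples came from brains of Canton-S wild-type pharate adults, the stage just before the fly leaves the pupal case, raised at 25 °C and dissected during the day. In each of 2 experiments about 1000 pooled brains were lysed. A small volume of the lysate served as the total RNA sample, and LARK-containing complexes were immunoprecipitated from the remainder with an antibody to LARK (IP). The 4 arrays therefore form 2 groups of 2, LARK IP and total RNA. Within an experiment, the IP sample went through the handling and washes of the precipitation, and the total RNA sample did not. The washes were mild, so that most RNAs of the lysate were also present in the IP samples, and no array of a precipitation without the antibody was analysed here.

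The values are MAS5 signal intensities, scaled on each array to a common target. With similar RNA amounts labelled, a signal shows the share of a transcript in a sample and not how much of it was precipitated. After this scaling the arrays had median signals of 2.7 or 2.8, a level under both background guides given next. Summed over the probe sets with a single symbol, signals were 92946.5 and 103269.5 in LARK IP 1 and 2, against 90541.2 and 93361 in total RNA 1 and 2. As a guide to background, 14 probe sets of eggshell genes, which are made in ovarian follicle cells, had signals of 0.2 to 14.9 with a 95th percentile of 13, and 23 control probe sets for bacterial, yeast and mouse transcripts had a 95th percentile of 4.49. Signals come from whole brains, so a low signal from few cells and a low signal from little RNA per cell cannot be told apart. The arrays of an experiment shared a hybridisation day, and the 2 experiments had different days. Standing apart between the groups were the control probe sets along the GAPDH transcript: the 3′ signal was 18.6 and 242 times the 5′ signal in LARK IP 1 and 2, against 9.53 and 8.86 times in total RNA 1 and 2. For eIF-4a the 3′ to 5′ ratios were 63.2 and 56.1 in LARK IP and 37.1 and 36 in total RNA. By these ratios both genes had signals more weighted to the 3′ end in the IP arrays. Every 5′ signal was under the eggshell background, however. For GAPDH they were 4.9 and 0.2 in LARK IP and 11.5 and 5.8 in total RNA. For eIF-4a they were 8.1 and 7.1 against 9.6 and 9.4. The 3′ to middle ratios were 8.28 and 25.5 against 5.71 and 7.04 for GAPDH. For eIF-4a these overlapped between the groups, at 5.29 and 10.1 against 3.27 and 6.83. The part of this in the results below was not tested.

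The first question was whether transcripts for making acetylcholine and recovering choline held a larger share of LARK IP than of total RNA. One probe set of ChAT and the probe set of ChT were about 5-fold higher in LARK IP, whereas the second ChAT probe set, Ace and the receptor subunits did not pass the test. In all, 2 of the 6 tested member probe sets rose and 0 fell, beside 2.69% of the 3492 tested probe sets that rose and 0.172% that fell (limma, Benjamini-Hochberg adjusted p at or under 0.05). At an unadjusted p under 0.05, Ace also passed, upward, and none passed downward, beside 7.82% of all tested probe sets upward and 4.18% downward. ChAT and ChT also stand in a list of LARK targets that was drawn up on these samples, so their direction here is no independent evidence.

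**Figure D1:**
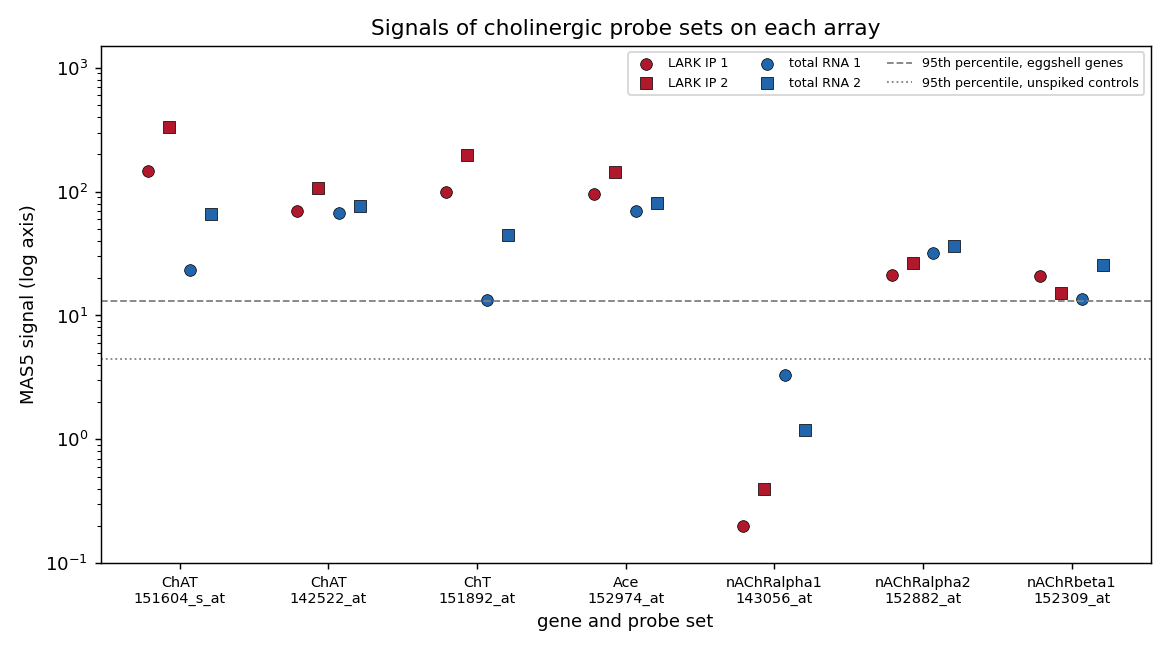
MAS5 signal (log axis) of the 7 cholinergic probe sets on each of the 4 arrays. Red points are LARK IP, blue points total RNA, circles experiment 1 and squares experiment 2, and the grey lines mark the 95th percentile of eggshell genes (13) and of control probe sets (4.49). For ChAT 151604_s_at and ChT both red points lie well above both blue points, and nAChRalpha1 lies under both lines on every array.

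Choline acetyltransferase, the enzyme that makes acetylcholine and marks cholinergic neurons, was read by probe sets 151604_s_at and 142522_at. Probe set 151604_s_at had signals of 146 and 330.5 in LARK IP 1 and 2, against 23.3 and 66.4 in total RNA 1 and 2. The groups did not overlap, and even the lower IP signal was 2.2 times the higher total RNA signal. The ratio was 6.27 in experiment 1 and 4.98 in experiment 2, a mean log2 ratio of 2.45 ± 0.22 (SD, n = 2), or 5.48-fold on the scale of log2(signal + 0.8), with an adjusted p = 0.000922 in limma. Among the 3492 tested probe sets it ranked 20th by mean ratio. Without the pairing by experiment the adjusted p was 0.588, and without a variance trend it was 0.179. Fits with 1 array left out also lacked the pairing. In them the log2 ratio of this probe set was lowest, 1.71, without total RNA 1 and highest, 3.19, when total RNA 2 was dropped.

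The second ChAT probe set, 142522_at, gave a different reading. Its signals were 70.1 and 106.9 in LARK IP and 66.9 and 77 in total RNA, so the groups overlapped. The log2 ratio was 0.27 ± 0.28 (SD, n = 2) with an adjusted p = 0.718 in limma. Within an array, the signal of 151604_s_at was 2.08 and 3.09 times that of 142522_at in LARK IP 1 and 2, but 0.348 and 0.862 times in total RNA. This within-array ratio was higher in both IP arrays than in either total RNA array, and an exact permutation test of 2 arrays against 2 gave p = 0.333, two-sided, the smallest it can give. The log2 ratios of the probe sets differed by 2.54 in experiment 1 and by 1.83 in experiment 2.

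Such a gap was uncommon but not confined to ChAT. Of 95 genes with at least 2 tested probe sets, 4 including ChAT (4.21%) had probe sets that lay as far apart or farther, the others being Nckx30C, fred and Mkp3. The median range was 0.68. In 8 of the 95 genes, at least 1 probe set was called higher and another was not. In Affymetrix's naming the suffix _s_at marks probes shared by several transcripts, and which stretch of ChAT either probe set covers was not analysed here. The choice of probe set therefore sets the result for ChAT. The 3′ to 5′ ratios given above, with 5′ signals under the eggshell background, moved with the same contrast.

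**Figure D2:**
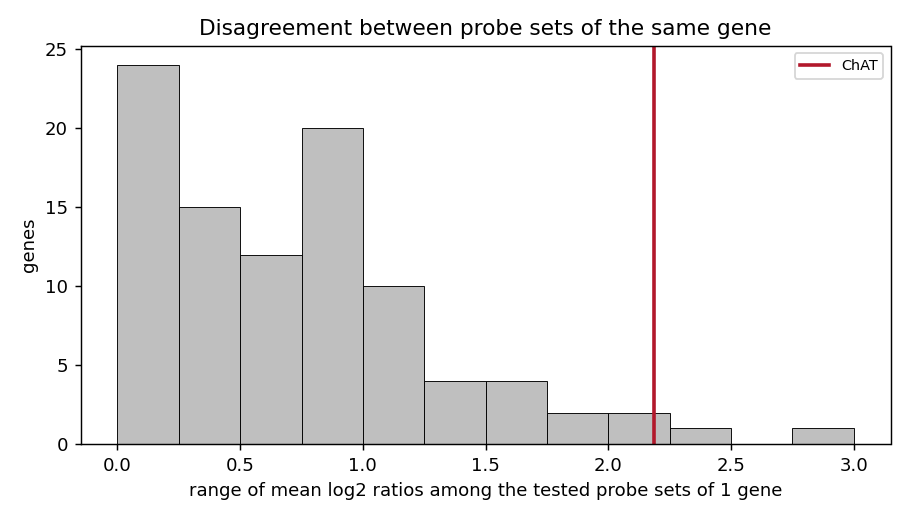
Histogram of the range of mean log2 ratios (LARK IP over total RNA) among the tested probe sets of 1 gene, for the 95 genes with at least 2 of them. The vertical axis counts genes, and the red line marks ChAT at 2.19, beyond which 3 other genes lie.

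The choline transporter gene ChT, whose product carries choline back into cholinergic terminals, followed 151604_s_at closely. Signals were 98.9 and 197.2 in LARK IP and 13.4 and 44.8 in total RNA, without overlap, although 13.4 in total RNA 1 lies just above the eggshell background of 13. The lower IP signal was 2.21 times the higher total RNA signal. The ratio was 7.38 in experiment 1 and 4.4 in experiment 2, and the mean log2 ratio was 2.47 ± 0.49 (SD, n = 2), or 5.52-fold, with an adjusted p = 0.00179 in limma and a rank of 19th. It lost its call in the same fits as ChAT, with an adjusted p of 0.588 without the pairing and 0.179 without a variance trend. With 1 array left out its log2 ratio was lowest, 1.62, without total RNA 1, and highest, 3.31, when total RNA 2 was dropped.

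Over the 4 arrays ChAT 151604_s_at and ChT were each other's nearest neighbour among the tested genes. The measure was the Euclidean distance between log2 signals after each probe set's own mean was subtracted, and it was 0.19 for this pair. Next to ChAT came TP53INP (153082_at, distance 0.36) and Ric (143893_at, distance 0.40, log2 ratio 2.29 ± 0.08), a Ras-related GTPase. Next to ChT came jus (152403_at, distance 0.34) and Pp1alpha-96A (143310_at, distance 0.47), a catalytic subunit of protein phosphatase 1. Against the eggshell background of 13, the total RNA signals of TP53INP (4.7 and 10.1) and Pp1alpha-96A (2.5 and 10.8) and that of jus in experiment 1 (8.9) were not above it, so their distances rest in part on such signals and no ratio is given. By the same measure 142522_at lay 2.40 from the other ChAT probe set and 0.37 from Ace. In the RefSeq gene order (Release 6) ChT and ChAT lie near each other on chromosome arm 3R with 3 protein-coding genes between them, and the span of VAChT shares an end with that of ChAT and lies within it. The span of another gene, CG46318, lies within that of ChT in the same way. Which of the overlapping genes the probes read was not analysed here.

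ChAT 151604_s_at and ChT were also alike in how the experiments differed. ChAT 151604_s_at was 2.26 times as high in LARK IP 2 as in LARK IP 1 and 2.85 times as high in total RNA 2 as in total RNA 1. For ChT these factors were 1.99 and 3.34. Both groups of arrays thus had more of these transcripts in experiment 2, by at least 1.5 times, which held for 11.2% of the tested probe sets. The factors of 142522_at and of Ace were 1.52 and 1.51 in LARK IP and 1.15 and 1.17 in total RNA, and the median over all tested probe sets was 1.01 in each group. Experiment, lysate and hybridisation day cannot be told apart.

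Acetylcholinesterase, the enzyme that ends the signal at the synapse, is encoded by Ace. Its probe set 152974_at had signals of 94.9 and 143.3 in LARK IP against 69.3 and 81 in total RNA. Both IP signals lay above both total RNA signals, as they did for 15.4% of all tested probe sets. The ratios of 1.37 and 1.77 corresponded to a log2 ratio of 0.63 ± 0.26 (SD, n = 2), which did not pass (adjusted p = 0.252 in limma, unadjusted p = 0.0176). Under quantile normalization the log2 ratio was 0.36.

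The next question was whether the receptor transcripts were shared out between LARK IP and total RNA as those for synthesis were. No nicotinic subunit among the members passed the test. The alpha2 subunit gene (152882_at) had 21.1 and 26.7 in LARK IP against 32 and 36.2 in total RNA. Both IP signals lay below both total RNA signals, which was the case for 17.4% of the tested probe sets, and the log2 ratio of -0.51 ± 0.11 (SD, n = 2) had an adjusted p = 0.497 in limma. The beta1 subunit gene (152309_at) had 20.8 and 15.2 in LARK IP against 13.6 and 25.4 in total RNA. Its log2 ratios were 0.58 in experiment 1 and -0.71 in experiment 2, so the experiments opposed each other and their mean of -0.06 ± 0.92 carries no direction (adjusted p = 0.984). The alpha1 subunit gene (143056_at) was too dim to be tested. It had 0.2 and 0.4 in LARK IP and 3.3 and 1.2 in total RNA, all under both background levels, so no fold is given.

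**Figure D3:**
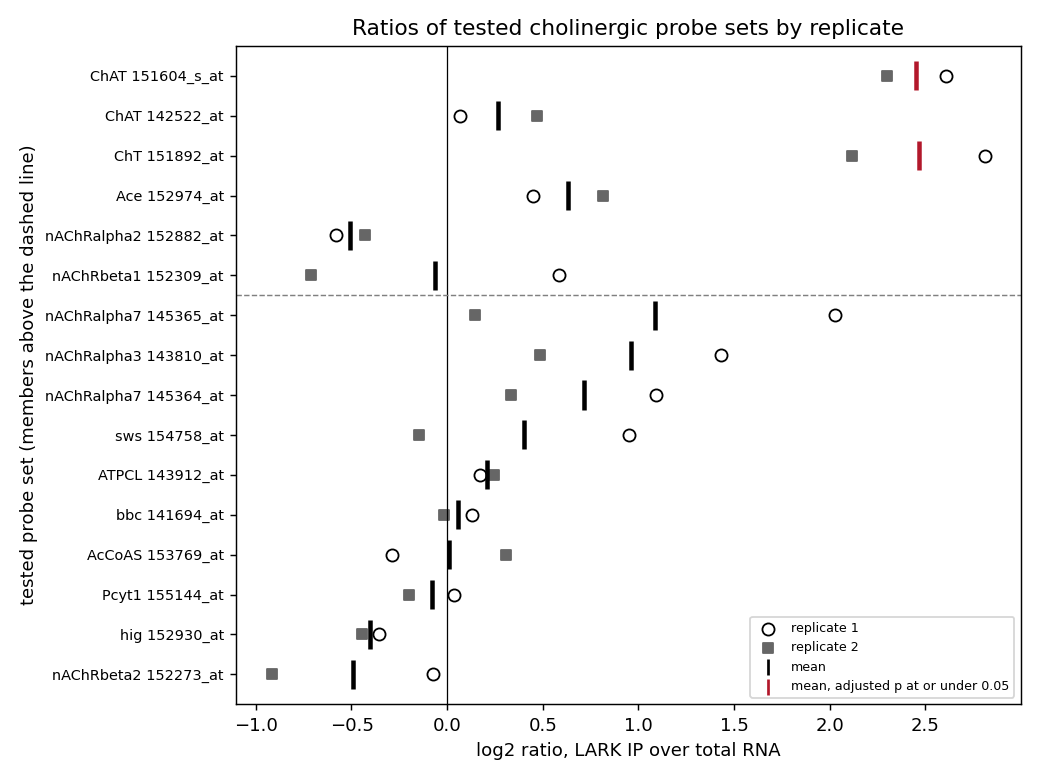
Log2 ratio of LARK IP over total RNA for each tested cholinergic probe set, with the 6 member probe sets above the dashed line and 10 probe sets of other cholinergic genes below it. Circles are experiment 1, squares experiment 2, and bars their mean, red where the adjusted p was at or under 0.05. Only ChAT 151604_s_at and ChT have red bars, and nAChRbeta1 has its experiments on opposite sides of 0. The nAChRalpha7 points of experiment 1 rest on signals under the eggshell background.

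Counted by plain ratios, ChAT 151604_s_at and ChT were the 2 member probe sets at least 2-fold higher in LARK IP in both experiments. Of the 1551 probe sets with both IP signals in the top 15% of their arrays, 129 (8.32%) were at least 2-fold higher. No member was at least 2-fold higher in total RNA in both experiments with total RNA signals that bright, beside 1.78% of 1514 probe sets. By gene, with the probe set of the higher mean log2 signal over the 4 arrays standing for each, the 5 tested members had a median log2 ratio of 0.63, beside -0.04 over 2884 tested genes with a single symbol. For ChAT this took 151604_s_at, which was the brighter one in LARK IP but the dimmer one in total RNA, so the choice was not independent of the ratio. With the probe set brighter in total RNA, 142522_at, the median was 0.27, an alternative chosen after seeing the data. The median was 0.45 over the 6 tested member probe sets and 0.27 over all 7, which adds nAChRalpha1 with signals under both background levels. By gene, the median was 0.93 without LARK IP 1 and 0.34 without LARK IP 2. The reported 0.63 is the value of Ace, whose log2 ratio was 0.36 under quantile normalization.

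**Figure D4:**
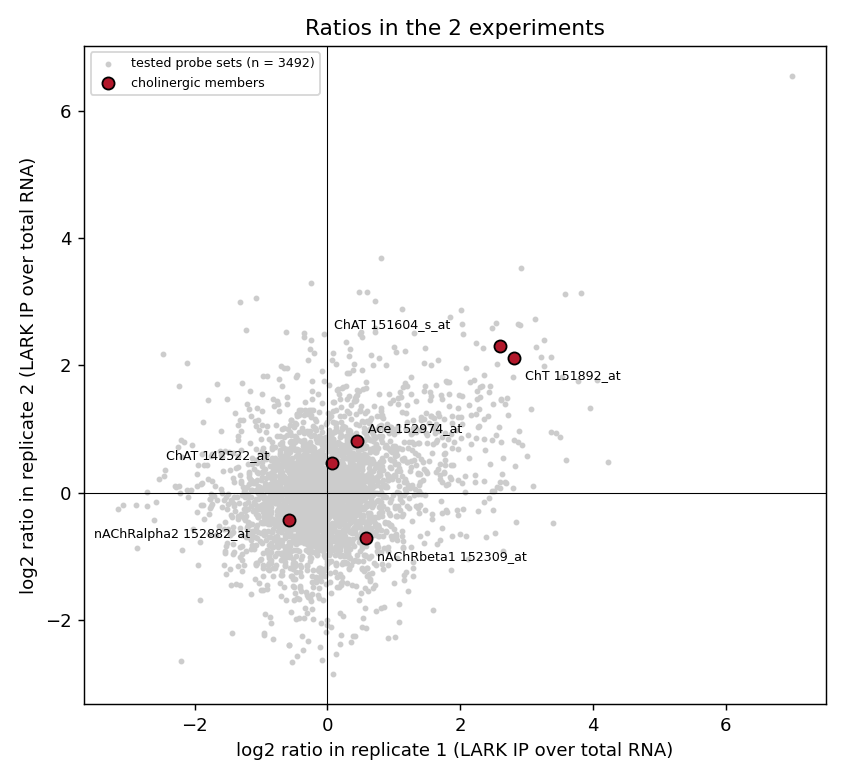
Log2 ratio of LARK IP over total RNA in experiment 1 (horizontal) and experiment 2 (vertical) for 3492 tested probe sets (grey) and the 6 tested member probe sets (red). ChAT 151604_s_at and ChT lie beyond 2 on both axes, and the other members lie within 1 of 0 on both.

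Of 20 further cholinergic genes (other receptor subunits, receptor partners and enzymes of choline and acetyl-CoA metabolism), 16 had a probe set, 9 were tested, and 0 rose or fell in limma. At an unadjusted p under 0.05 nAChRalpha3 alone passed, upward, beside the 7.82% of all tested probe sets given above. Among the nicotinic subunits, nAChRalpha3 (143810_at) had 19.2 and 30.7 in LARK IP against 6.6 and 21.7 in total RNA. Its log2 ratio was 0.96 ± 0.67 (adjusted p = 0.272 in limma). The brighter nAChRalpha7 probe set (145365_at) had 9 and 24.8 against 1.6 and 22.3, and the other (145364_at) had 9 and 15.6 against 3.8 and 12.2. In experiment 1 the total RNA signals of alpha3 and alpha7, and the LARK IP signals of alpha7, were under the eggshell background of 13, so no ratio is given for alpha7 and that of alpha3 rests in part on such a signal. The beta2 subunit gene (152273_at) had 49.3 and 20.2 against 51.9 and 38.8, and a log2 ratio of -0.49 ± 0.60.

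Of the 10 nicotinic subunit genes, 9 had probe sets and 5 were tested, with a median log2 ratio of -0.06. This is the value of nAChRbeta1, and it carries no direction. The median was 0.585 in experiment 1 and -0.43 in experiment 2, and it counts nAChRalpha7, whose signals in experiment 1 were under the eggshell background. The probe sets of nAChRalpha4 and nAChRbeta3, and those of the muscarinic receptors mAChR-B and mAChR-C, had signals of at most 4.9. The 2 probe sets of nAChRalpha5 were not tested either, with signals of at most 8.3. No probe set was named for nAChRalpha6 or mAChR-A.

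The metabolic genes lay near 0. ATPCL, ATP citrate lyase, had a log2 ratio of 0.21 ± 0.05, AcCoAS, acetyl-CoA synthase, 0.01 ± 0.42, bbc, a choline phosphotransferase, 0.06 ± 0.10, and Pcyt1, an enzyme of phosphatidylcholine synthesis, -0.08 ± 0.17. The phospholipase gene sws had 0.40 ± 0.78, with 3 of its 4 signals under the eggshell background. The gene hig, which encodes a protein of the cholinergic synaptic cleft, had 127.3 and 92.2 in LARK IP against 163.4 and 125.7 in total RNA, log2 ratios of -0.36 and -0.44 (adjusted p = 0.493 in limma). None of these passed.

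Set beside other transmitters, 6 of 18 genes for synthesis, packaging and uptake were tested, of which Vmat, the vesicular monoamine transporter, rose (log2 ratio 1.77 ± 0.02) and Ddc, which makes dopamine and serotonin, fell (-0.82 in experiment 1 and -1.18 in experiment 2). Their median was -0.70. Every signal of prt and SerT was under the eggshell background, as were those of VGAT except in total RNA 1 (17.9). The median thus rests in part on such signals. Of 22 receptor genes for other transmitters 8 were tested, the GABA receptor gene Rdl (1.80 ± 0.69) and DopEcR rose, and the median was 0.01. DopEcR had 9.4 and 33.8 in LARK IP against 0.6 and 4.7 in total RNA, and since both total RNA signals were under the eggshell background no ratio is given. A difference between these groups and the cholinergic genes was not tested.

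Of 10 neuronal markers 6 were tested, 2 rose (Sap47 and futsch) and 0 fell, with a median log2 ratio of 1.31, and the signals of their 13 probe sets summed to 125.8 and 198.1 in LARK IP against 41.4 and 116.4 in total RNA. The log2 ratio was above 0 for 5 of the 6, the exception being Rbp9 at -0.47 ± 0.42, whose tested probe set had 7.1 and 15 in LARK IP, 8.1 in total RNA 1 and 26.1 in total RNA 2. In total RNA, Sap47 had 3.3 and 4.9, futsch 10.6 and 52.3, elav 1.5 and 7.2, fne 5.1 and 12.4, and nSyb 6.9 and 1.4. Sap47, elav, fne and nSyb were thus under the eggshell background of 13 there, and the median rests in part on such signals. The log2 ratios of nSyb were -0.24 in experiment 1 and 2.40 in experiment 2. The part of these markers in the ratios of ChAT and ChT was not tested. Markers of glia (4 of 8 tested, median 0.14), photoreceptors (6 of 10, median -0.45), muscle (2 of 7, median 0.03) and haemocytes (3 of 6, median -0.36) had 0 called in either direction, as had the 3 tested eggshell probe sets (median 0.07). Of 6 fat body markers 3 had a probe set, and all 3 stayed under the filter at 7.8 or less.

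**Figure D5:**
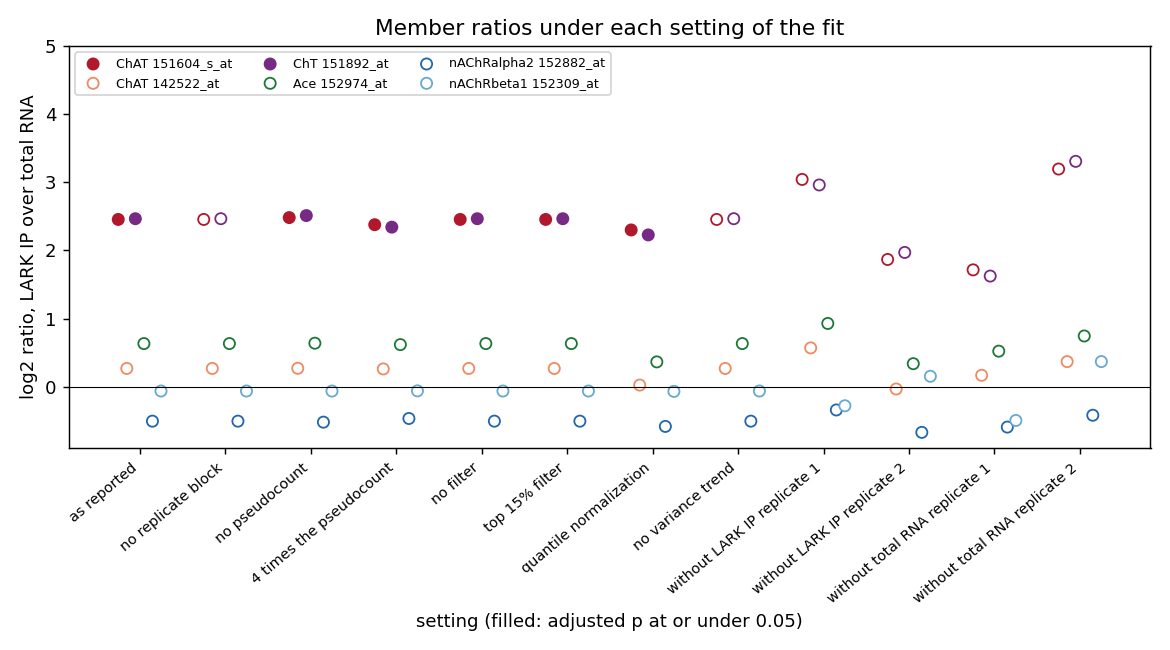
Log2 ratio of LARK IP over total RNA (vertical) of the 6 tested member probe sets under each setting of the fit (horizontal), filled where the adjusted p was at or under 0.05. The settings with 1 array left out were also fitted without the replicate block. ChAT 151604_s_at and ChT stay above 1.6 in every setting shown, and are unfilled without the replicate block, without a variance trend and with any 1 array left out.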

How the data were processed

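The deposited table held signal intensities of 14010 probe sets (44 controls) on 4 Affymetrix Drosophila Genome arrays, which the authors computed with Microarray Suite 5.0 at default settings and scaled to a common target intensity. Detection calls were not used here. Of 13966 probe sets, the platform annotation gave 1 symbol for 12443, several for 327 and none for 1196; only those with 1 symbol were named, and 0 symbols needed an update to RefSeq Release 6. LARK IP was compared with total RNA on log2(signal + 0.8), 0.8 being the median 25th percentile signal, with limma 3.58.1 (R 4.3.3; lmFit, eBayes with a variance trend) and Benjamini-Hochberg adjustment at 0.05 over the 3492 probe sets in the top 25% of mean log2 signal. The replicate number was a block because IP and total RNA of a number shared a lysate, by the series description; across tested probe sets, the change from experiment 1 to 2 in IP and that in total RNA had Pearson's r of 0.361. With 1 residual degree of freedom, the error of each probe set rests mostly on the others (7.84 prior degrees of freedom), and the number of arrays limits the precision. Fits were tested on simulated data, drawn as normal noise with the spread and the experiment effect of the reported fit. Such data cannot show whether the variance trend or the block suits the real arrays. Text names all member probe sets, the tested genes of the further cholinergic list, called genes of the lists for other transmitters and other receptors, and the 3 nearest genes to ChAT and to ChT; the cell type markers covered neurons, glia, photoreceptors, fat body, muscle, haemocytes and eggshell. Genes named beyond this rule, among them the 3 with probe sets as far apart as those of ChAT, were chosen after their values were seen. Members and lists were chosen with earlier results of these data known. Alternatives were no block, other pseudocounts, filters, normalization, no variance trend and leaving out each array.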

Additional observations from a re-analysis of the deposited data

How the results depend on the processing

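Of 11 alternative fits, 5 called the same number of member probe sets as the reported one (2) and 6 called 0, namely those without the replicate block, without a variance trend and with any 1 array left out. Across all tested probe sets, 94 higher and 6 lower became 0 and 0 without the block in limma (137 and 38 at an unadjusted p under 0.05), 12 and 0 with quantile normalization (241 and 172 unadjusted), 1 and 0 without the trend (232 and 115 unadjusted), and 0 and 0 when each array in turn was dropped. The number lower was also 2 without a pseudocount, 16 with 4 times it and 0 with the top 15% filter (115 unadjusted). Dropping an array was fitted with fewer samples and without the block, and the other causes were not tested. Probe sets at least 2-fold higher in both experiments numbered 994 with no floor and 221 at a ratio of 1.5, with the same number of members, 2. The members' median log2 ratio of 0.63 was 0.45 over all tested probe sets, 0.27 without the filter or with ChAT read by the probe set brighter in total RNA (added after seeing the data), and 0.34 to 0.93 with 1 array left out. With 1 array left out, signs turned for ChAT 142522_at, whose log2 ratio ranged from -0.034 (without LARK IP 2) to 0.57, and for nAChRbeta1, which ranged from -0.50 to 0.37 (positive without LARK IP 2, at 0.15, or total RNA 2), neither called in any setting. The replicate block changed no other call of a member.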
